A study of Mus musculus with 5 samples.

Results

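Spen and Rbm15, 2 genes whose proteins end in a SPOC domain, were followed through a CRISPR screen of embryonic stem (ES) cells of the mouse. They were found by their names in the count tables and make up 2 of the 1682 genes targeted. Each gene had 10 guide RNAs, 20 in all. The pair was selected on its change at day 12 against the plasmid pool, so its values are given as a description and no test was run on them. In such a screen lentivirus brings a guide into a cell, the guide directs cutting of its gene, and its share of the sequencing reads follows the share of cells with that guide. The libraries were 2 of the plasmid pool (the maxiprep before it entered cells) and 1 each of transduced cells at days 5, 8 and 12. All cell libraries come from ES cells labelled Ainv15(iNgn2 Tubb3::GFP) that were kept under Zeocin in ES cell medium after transduction. Both plasmid libraries carry the same genotype label. The titles count days after transduction and the protocol after selection, so the days serve here as names.

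SPEN, also known as SHARP or MINT, is a very large nuclear protein with RNA recognition motifs at one end and the SPOC domain at the other. Through SPOC it recruits NCoR corepressor complexes and their histone deacetylase HDAC3. It does so as a corepressor of RBPJ, the DNA-binding protein of Notch signalling, and on the RNA Xist during silencing of the X chromosome. RBM15 has the same layout of RNA recognition motifs and a SPOC domain. It brings the complex that writes N6-methyladenosine (m6A) to RNAs, Xist among them, and its SPOC domain binds the H3K4 methyltransferase SETD1B. Human RBM15 is known for its fusion to MKL1 in a childhood leukaemia. Rbm15b, the close relative of Rbm15, was not found by that name among the genes targeted.

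Spen lies on chromosome 4 (141467885 to 141538644) and Rbm15 on chromosome 3 (107305511 to 107334460) of the RefSeq annotation of GRCm38.p6, the build also called mm10. The positions of the guides within exons, introns or protein were not analysed here. The guides below are the 2 highest and the 2 lowest of each gene at day 12, plus Spen guides 5 and 10. Those 2 were added after their values were seen, because guide 5 overlaps Spen guide 9 and guide 10 overlaps guide 5. Guides are numbered in the order of the tables and written 5′ to 3′. Capitals mark the 12 bases nearest the PAM, where pairing with the target matters most.
Spen guide 4 (high): ccccactgCGGATCGCCCAG
Spen guide 9 (high): tcaccacaTCCTCCTGGTCA
Spen guide 1 (low): tccctgccTCTCTCTGAAGG
Spen guide 8 (low): attatcaaTGTCCCCAACCC
Spen guide 5 (overlaps guide 9): gccctgtgGCCGTGACCAGG
Spen guide 10 (overlaps guide 5): tctgccctGTGGCCGTGACC
Rbm15 guide 4 (high): tagcctttGTGAACTTCCGG
Rbm15 guide 8 (high): tgtgggagGCAATAAAGACA
Rbm15 guide 3 (low): tggcctccGGAAGTTCACAA
Rbm15 guide 5 (low): cccaactcAAGATCACTCAG

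Some guides to one gene share a stretch of target, so they are not separate sites. Spen guides 5 and 10 share 17 bases on the same strand, and guides 5 and 9 share 8 bases on opposite strands. Rbm15 guides 3 and 4 share 14 bases on opposite strands, as do Rbm15 guides 2 and 7. Where an overlapping guide reaches past the end of another, the 3 bases that follow can be read from it. They were AGG after Spen guides 5 and 10 and after Rbm15 guides 3 and 4, and CGG after Spen guide 9, which are PAMs of the NGG form used by the Cas9 of Streptococcus pyogenes. If cutting is 3 bases from the PAM, the cuts of Spen guides 5 and 9 lie 2 bases apart, those of Spen guides 5 and 10 lie 3 apart, those of Rbm15 guides 3 and 4 lie 8 apart and those of Rbm15 guides 2 and 7 lie 20 apart.

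Libraries held 3541896 and 1350234 reads for the plasmid pool and 1063071, 1082489 and 1008492 reads at days 5, 8 and 12. Guides with at least 30 reads in each plasmid library were kept, which left 19 of the 20 guides: 9 to Spen and 10 to Rbm15. Counts were scaled to CPM (counts relative to library size) with TMM library factors, which set the typical guide to no change. The change of a guide was taken as log2 of its CPM plus 1 in the later library over its CPM plus 1 in the earlier one, or over that of the mean of both plasmid libraries. A gene's value is the median over its guides, and the SD beside it is over those guides. A change past 2-fold means a log2 ratio of 1 or more, or of -1 or less. With 1 library per time point no replicate stands behind any difference between days, and no p-value is given.

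The share of reads on guides to both genes grew over the days. The 9 kept Spen guides together held 1266 and 579 plasmid reads, then 550 at day 5, 718 at day 8 and 1177 at day 12. In scaled counts this was 365 CPM (346 to 386) and 433 CPM (399 to 470.2) for the plasmid pool, and 530.0 CPM (487 to 576) for day 5, 685 CPM (636 to 737) for day 8 and 1283 CPM (1211 to 1358) for day 12. The intervals are exact 95% Poisson intervals and cover counting error only, since reads are not separate cells. Day 12 was the highest library for Spen and the plasmid libraries were the lowest.

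The 10 Rbm15 guides together held 2019 and 763 plasmid reads, then 741 at day 5, 965 at day 8 and 1455 at day 12. In scaled counts this was 583 CPM (558 to 609) and 571 CPM (531 to 613) for the plasmid pool, and 714 CPM (664 to 767) for day 5, 921 CPM (864 to 981) for day 8 and 1586 CPM (1505 to 1669.5) for day 12. Here too day 12 was highest and the plasmid libraries lowest. The intervals of days 5, 8 and 12 did not overlap within either gene. Neither did those of the 2 plasmid libraries for Spen (346 to 386 and 399 to 470.2 CPM), so a lack of overlap says little. How many other genes had such intervals was not analysed here.

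**Figure D1:**
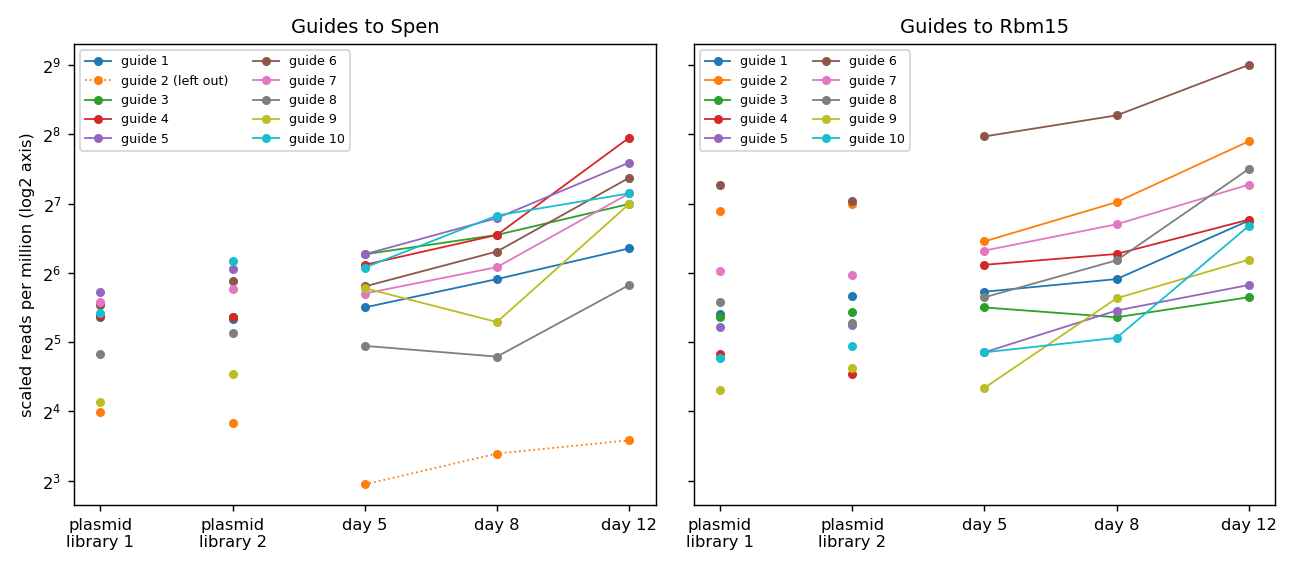
Scaled reads (CPM, log2 axis) of every Spen guide (left) and Rbm15 guide (right) in the 5 libraries; lines join the days of 1 guide, and the dotted guide fell under the minimum of 30 plasmid reads. All 19 kept guides were higher at day 12 than at day 5. In that comparison the median was -0.038 over all kept guides to genes and 0.17 over non-targeting guides. Their shares above 0 were not analysed here.

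At day 12 against the plasmid pool, Spen had a median log2 change of 1.51 (SD 0.61 over 9 guides), or 2.84-fold, and Rbm15 one of 1.46 (SD 0.62 over 10 guides), or 2.75-fold. All 9 Spen guides and all 10 Rbm15 guides lay above 0. The median was -0.066 over all kept guides to genes and 0.58 over non-targeting guides, and their shares above 0 were not analysed here. Past 2-fold higher were 7 of 9 Spen guides and 7 of 10 Rbm15 guides, beside 7.39% of all guides to genes and 22.3% of non-targeting guides. Among gene medians 1.19% lay past 2-fold higher, with Spen at position 10 and Rbm15 at position 13 of 1682 from the top. The genes next to Spen in that order were Ezh2 (1.54) above and Kmt2c (1.49) below, and those next to Rbm15 were Fubp1 (1.48) above and Rarg (1.44) below. These steps are small beside the SD over guides, so the order among neighbours is not resolved.

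Within Spen the guides ran from 0.82 to 2.59. Spen guide 9 had 17.6 and 23.2 CPM in the plasmid pool, 54.9 CPM on day 5, 39.1 CPM on day 8 and 128 CPM on day 12, a log2 change of 2.59 at day 12 against plasmid. Spen guide 4 had 41.6 and 41.2 CPM in the plasmid pool, 69.4 CPM on day 5, 93.6 CPM on day 8 and 247 CPM on day 12, a change of 2.55. These are the only 2 Spen guides above 1.74, the upper end of the middle 95% of non-targeting guides. At the low end, guide 8 had 28.3 and 35.2 CPM in the plasmid pool, 30.8 CPM on day 5, 27.7 CPM on day 8 and 56.7 CPM on day 12, a change of 0.82. Guide 1 ended at 0.99, just inside 2-fold. Spen guide 2 was left out for its 55 and 19 plasmid reads. It had 8, 11 and 11 reads at days 5, 8 and 12 and was the single guide of either gene below its plasmid level at day 12 (log2 change -0.31).

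Within Rbm15 the guides ran from 0.24 to 2.04. Rbm15 guide 4 had 28.3 and 23.2 CPM in the plasmid pool, 69.4 CPM on day 5, 77.3 CPM on day 8 and 109 CPM on day 12, a change of 2.04. Rbm15 guide 8 had 47.9 and 38.9 CPM in the plasmid pool, 50.1 CPM on day 5, 72.6 CPM on day 8 and 181 CPM on day 12, a change of 2.03. Both reached about the same change, but guide 4 had most of its gain by day 5 and guide 8 had most of it after day 8. Rbm15 guide 3 had 41.3 and 43.4 CPM in the plasmid pool, 45.3 CPM on day 5, 41.1 CPM on day 8 and 50.1 CPM on day 12, a change of 0.24, the lowest of the kept guides. The lowest and the highest Rbm15 guide are thus the overlapping pair printed above, whose target stretches share 14 bases. Among the overlapping Spen guides the changes were 1.67 for guide 5, 2.59 for guide 9 and 1.29 for guide 10. Counting each overlapping group as 1 site, by its mean, left 7 Spen and 8 Rbm15 sites with medians of 1.51 and 1.43, and past 2-fold higher were 5 of 7 and 7 of 8.

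At day 5 the changes of both gene medians were small. Spen had a median of 0.23 (SD 0.47, 8 of 9 guides above 0) and Rbm15 one of 0.14 (SD 0.56, 6 of 10 guides above 0), at positions 329 and 526 of 1682. Past 2-fold higher was 1 guide of each gene, Spen guide 9 (1.39) and Rbm15 guide 4 (1.40), beside 1.26% of guides to genes and 7.5% of non-targeting guides. Neither gene median was past 2-fold higher, as 0.0595% of gene medians were. Spen guide 9 had the fewest plasmid reads of the kept Spen guides (61 and 31), and Rbm15 guide 4 (98 and 31) had the fewest of the Rbm15 guides in plasmid library 2. The part that low plasmid counts play in these early values was not tested. Without plasmid library 1 the Spen median at day 5 was 0.16 and the Rbm15 median 0.058, and without plasmid library 2 they were 0.53 and 0.10. The Spen position depended on these choices: it was 498 without plasmid library 1, 28 without plasmid library 2, 35 with the mean of guides, 79 with summed counts and 759 when the change was corrected for the number of G and C bases in a guide. Rbm15 ranged from position 201 with summed counts to 731 without plasmid library 1.

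At day 8 Spen reached a median of 0.88 against the plasmid pool (SD 0.42, 8 of 9 guides above 0) and Rbm15 one of 0.52 (SD 0.53, 9 of 10 above 0). Past 2-fold higher were 2 Spen and 3 Rbm15 guides, beside 2.74% of guides to genes and 12.7% of non-targeting guides. No median passed 2-fold, as 0.178% of gene medians did. The day 5, day 8 and day 12 values against plasmid share the plasmid libraries and are set side by side only.

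The non-targeting guides, which cut no gene, also lay above the typical guide to a gene. Their medians were 0.41, 0.54 and 0.58 at days 5, 8 and 12 against plasmid, over 893 guides. Set against that level, Spen was 0.18 lower at day 5 (median difference -0.18), 0.34 higher at day 8 and 0.92 higher at day 12. Rbm15 differed from it by -0.27, -0.013 and 0.88. At day 12 the members were thus 1.90-fold (Spen) and 1.84-fold (Rbm15) above the non-targeting median, short of 2-fold, and at day 5 both were below it. At day 12, 9 of 9 Spen and 8 of 10 Rbm15 guides exceeded the non-targeting median, and 2 and 4 exceeded the upper end of the middle 95%. The median of all kept guides to genes was -0.066, and their share past these 2 lines was not analysed here. The counts come from the day 12 library on which the pair was selected.

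**Figure D2:**
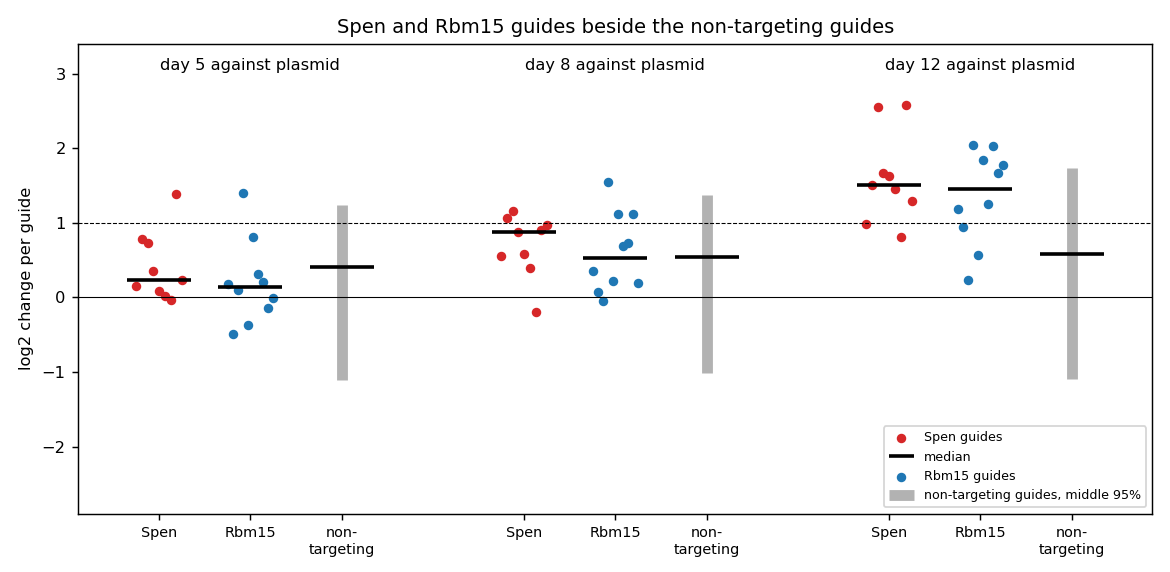
Log2 change of each kept guide to Spen (red) and Rbm15 (blue) against the plasmid pool at days 5, 8 and 12, with black bars at medians, grey bars for the middle 95% of the 893 non-targeting guides and a dashed line at 2-fold. Spen and Rbm15 medians of 0.23 and 0.14 lie below the non-targeting 0.41 at day 5, and 1.51 and 1.46 lie above 0.58 at day 12.

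Guide composition differed between the genes. Of the 20 bases of a guide, G or C made up 9 to 15 in Spen guides (median 13) and 9 to 13 in Rbm15 guides (median 10), with a median of 11 among all kept guides to genes. Across non-targeting guides each further G or C came with 0.125 more log2 change at day 12 against plasmid. When that slope was taken out, the day 12 median was 1.15 for Spen and 1.50 for Rbm15. The order of the 2 genes thus turned and both stayed past 2-fold, but this correction did not take out the non-targeting level. At day 8 the corrected medians were 0.44 and 0.48, at positions 79 and 62 in place of 6 and 77. Against the median of non-targeting guides with the same number of G and C, 9 of 9 Spen guides and 9 of 10 Rbm15 guides were higher at day 12, 5 of 9 and 5 of 10 at day 8, and 3 of 9 and 3 of 10 at day 5. The exception at day 12 was Rbm15 guide 3. Day 12 is also the library on which the pair was selected. The share of all kept guides to genes above the medians of these matched non-targeting guides was not analysed here. The median excess over those non-targeting guides at day 12 was 0.75 for Spen and 0.96 for Rbm15, both short of 2-fold.

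The comparison of day 12 with day 5 leaves the plasmid pool out of the ratio and asks what changed after day 5. Guides were still kept by their plasmid reads. The comparison also uses the day 12 library on which the pair was selected, which favours high values. Spen had a median of 1.20 (SD 0.37, 9 of 9 guides above 0), or 2.30-fold, and Rbm15 one of 1.02 (SD 0.55, 10 of 10 guides above 0), or 2.03-fold. Past 2-fold higher were 6 of 9 Spen and 6 of 10 Rbm15 guides, beside 4.76% of guides to genes and 6.05% of non-targeting guides. Among gene medians 0.832% were past 2-fold higher, with Spen at position 10 and Rbm15 at position 14. The summed scaled reads were 2.42-fold higher at day 12 for Spen (2.19 to 2.68) and 2.22-fold higher for Rbm15 (2.03 to 2.43), with exact 95% intervals for counting error only. In this comparison the non-targeting median was 0.17 and its slope on G and C was -0.0014 per base, so Spen and Rbm15 were 1.03 and 0.85 above it. The Rbm15 median fell just short of 2-fold, at 0.92 with library totals in place of TMM factors, and also at 0.99 with a pseudocount of 5.

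The larger part of the change came in the last interval. That interval ends in the day 12 library on which the pair was selected, so the choice itself favours a high value there. From day 5 to day 8 the medians changed by 0.40 for Spen (SD 0.37, 7 of 9 guides above 0) and 0.34 for Rbm15 (SD 0.37, 9 of 10 above 0). From day 8 to day 12 they changed by 1.01 for Spen (SD 0.46) and 0.65 for Rbm15 (SD 0.41), with all 19 guides above 0. Per day of the titles' count, this was 0.13 and then 0.25 for Spen, and 0.11 and then 0.16 for Rbm15. From day 8 to day 12 the median was -0.0047 over all kept guides to genes and 0.051 over non-targeting guides. Their shares above 0 were not analysed here. Past 2-fold higher from day 8 to day 12 were 5 of 9 Spen and 2 of 10 Rbm15 guides, beside 2.88% of guides to genes and 1.46% of non-targeting guides. From day 5 to day 8 there were 0 Spen guides and 1 Rbm15 guide, beside 1.33% of guides to genes and 1.9% of non-targeting guides. The Spen median for the last interval sat at the 2-fold line and fell under it in 7 alternatives, the lowest being 0.90 when single guides were left out in turn. It lay at position 6 of 1682 and that of Rbm15 at position 20, where 0.416% of gene medians were past 2-fold higher.

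Single guides took different courses. Rbm15 guide 9 (20.2 CPM on day 5, 49.6 CPM on day 8 and 73.0 CPM on day 12) changed by 1.25 in the first interval and 0.55 in the second. Rbm15 guide 10 (28.9, 33.4 and 102 CPM on the same days) changed by 0.20 and then 1.59. Spen guide 9 went down by day 8 (log2 change -0.48) and up after it (1.68). Both intervals use the 41 reads it had at day 8, so a low count there lowers the first value and raises the second.

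**Figure D3:**
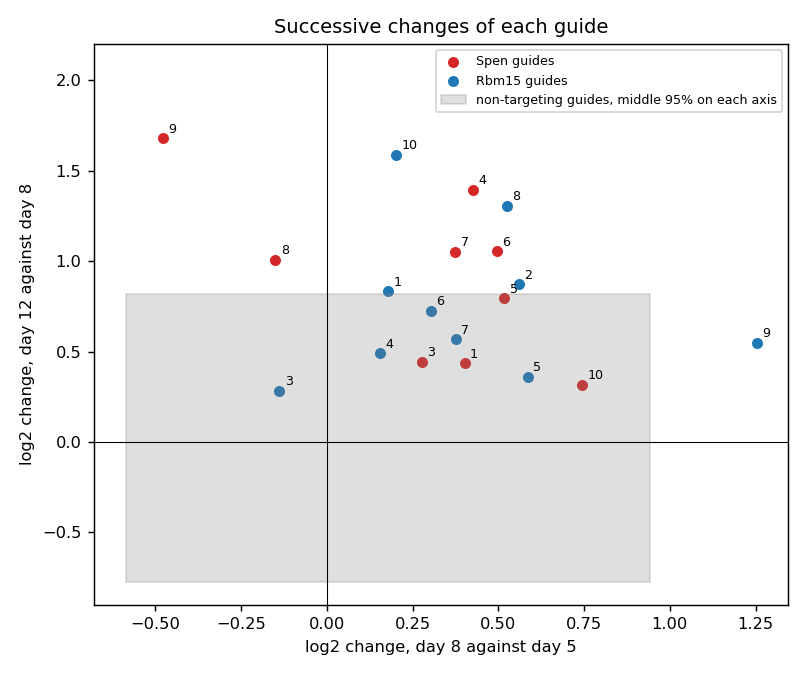
Log2 change of each kept guide from day 5 to day 8 (horizontal) and from day 8 to day 12 (vertical), numbered by guide, for Spen (red) and Rbm15 (blue); the grey box spans the middle 95% of non-targeting guides on each axis. Both axes share the day 8 library. All 19 guides lie above 0 on the vertical axis, and 5 Spen and 4 Rbm15 guides lie above the box. The median of all kept guides to genes on that axis was -0.0047, and their share above the box was not analysed here.

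The genes nearest to each member over the medians at days 5, 8 and 12 were found by Euclidean distance among 1681 others. Spen was nearest to Ezh2, the H3K27 methyltransferase gene of polycomb (distance 0.16), then to the ETS repressor gene Erf (0.18), the nuclear receptor coactivator gene Ncoa6 (0.32), Prdm14, a regulator of naive pluripotency (0.35), and Rbm15 (0.37). Rbm15 was nearest to Prdm14 (0.13), then to Ezh2 (0.22), the retinoic acid receptor gene Rarg (0.30), the pluripotency factor gene Sall4 (0.36) and Spen (0.37). The median distance to all other genes was 1.75 for Spen and 1.56 for Rbm15. Prdm14 had medians of 0.10, 0.56 and 1.58 at the 3 days and Ezh2 had 0.20, 0.72 and 1.54. Their likeness to the pair in these values is fixed by the choice of the nearest genes. The 3 comparisons share the plasmid libraries, so the distances rest on 5 libraries and describe them only.

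Both other measured genes with a SPOC domain, Dido1 and Phf3, ended below their plasmid level. Dido1, whose protein associates with chromatin and RNA polymerase II, stood at -1.80 at day 12 against plasmid, with an SD of 1.28 and 7 of 10 guides below 0, beside 15.8% of gene medians past 2-fold lower. Phf3, whose SPOC domain binds the phosphorylated tail of RNA polymerase II, stood at -0.63, with an SD of 0.79 and 7 of 8 guides below 0. At day 5 Dido1 stood at -0.78 and Phf3 at 0.026. Of the 4 SPOC genes measured, 2 were past 2-fold higher and 1 lower at day 12 against plasmid. The 2 higher ones are Spen and Rbm15, so that count is fixed by their choice. Without them, 0 of 2 were higher and 1 lower, beside 1.19% and 15.8% of gene medians.

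The corepressor that SPEN recruits was measured through 3 of its 5 genes described here. At day 12 against plasmid 0 were past 2-fold higher and 1 lower, beside 1.19% and 15.8% of all gene medians. The list median was -0.34, beside 0.0090 over all genes. Hdac3, the deacetylase, stood at -0.41 at day 5, -1.74 at day 8 and -2.21 at day 12 (SD 1.82, 8 of 8 guides below 0), or 0.216 of its plasmid level. The corepressor gene Ncor1 was the highest at -0.14, and the scaffold gene Tbl1x stood at -0.34. All 3 ended below the non-targeting median of 0.58, but so did most genes, and Spen was selected for its high value.

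Of 19 listed Notch/RBPJ genes 14 were measured, and 0 were past 2-fold in either direction at day 12 against plasmid. The shares over all gene medians were 1.19% higher and 15.8% lower. The list median at day 12 against plasmid was 0.032. Rbpj itself stood at -0.081, -0.036 and -0.051 at days 5, 8 and 12, with 4 of 8 guides above 0 at day 12. The highest at day 12 was the receptor gene Notch2 (0.45) and the lowest was L3mbtl3 (-0.26), a chromatin protein that binds RBPJ. At day 12 the Rbpj median (SD 0.71 over guides) was near the typical guide to a gene and below the non-targeting median of 0.58. Spen was selected for its high value at day 12, so its contrast with Rbpj is shaped by that choice. Whether the gain of Spen guides depends on RBPJ was not tested.

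Of the m6A list, 1 of 7 genes was measured. Ythdc1, the nuclear reader of m6A, had medians of -1.30, -0.97 and -0.80 at days 5, 8 and 12 (9 of 9 guides below 0 at day 12). It was past 2-fold lower at day 5, beside 6.3% of gene medians, and its change from day 5 to day 12 was 0.17. The listed writer subunits that RBM15 works with were not among the genes measured.

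Among 9 measured genes of the Xist silencing list, 1 was past 2-fold higher and 5 lower at day 12 against plasmid, beside 1.19% and 15.8% of all gene medians. The list median was -1.03. The lower ones were the RNA-binding protein genes Hnrnpk (-3.48) and Matr3 (-1.41) and the polycomb genes Rnf2 (-1.93), Jarid2 (-1.66) and Eed (-1.03). Rybp, of the same polycomb machinery, was past 2-fold lower from day 5 to day 12 (-1.04, beside 7.02% of gene medians) and stood at -0.71 at day 12 against plasmid. The single higher gene was Ezh2 (1.54, SD 0.41, 10 of 10 guides above 0). Suz12, the partner of EZH2 and EED in 1 complex, stood at -0.63 with 3 of 8 guides above 0.

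Genes of the H3K4 methyltransferase complexes split by enzyme. At day 12 against plasmid 2 of 5 were past 2-fold higher and 2 lower, beside 1.19% and 15.8% of all gene medians. Kmt2d stood at -0.17, 0.21 and 2.13 at days 5, 8 and 12 (SD 0.79 at day 12, 9 of 9 guides above 0), and its close paralogue Kmt2c at -0.23, 0.36 and 1.49 (SD 0.60, 9 of 9 above 0). Both gained mostly after day 8, by 1.64 and 1.00, beside 1.01 for Spen and 0.65 for Rbm15. Kmt2b stood at -3.41 at day 12 (8 of 8 guides below 0), the shared subunit gene Ash2l at -1.56 (9 of 9 below 0) and Kmt2a at 0.28. Setd1b, the enzyme that RBM15 binds, was not among the 5 genes measured.

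**Figure D4:**
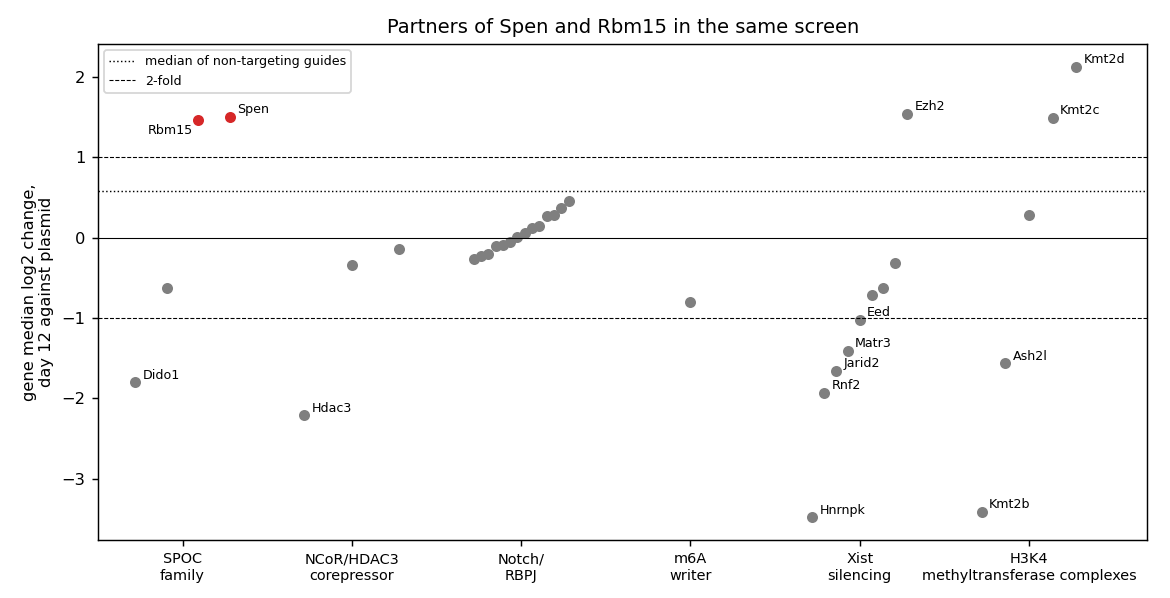
Median log2 change at day 12 against plasmid of Spen and Rbm15 (red) and of the measured genes of 6 lists of SPOC genes and partners (grey), 1 point per gene, with dashed lines at 2-fold and a dotted line at the non-targeting median of 0.58. Spen and Rbm15 lie at 1.51 and 1.46, with Ezh2, Kmt2c and Kmt2d the other points above the upper 2-fold line.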

How the data were processed

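Guide abundance was measured by sequencing in 2 plasmid libraries and in 1 library of transduced ES cells at each of days 5, 8 and 12. The authors deposited raw counts of reads on each guide, per the file headers. Names given per the submitters' processing notes are cutadapt, Bowtie, featureCounts and mm10; the matching of reads to guides is not given in the sources used here. Every table held 17820 guides, 10 for each of 1682 genes and 1000 non-targeting. All gene names matched the RefSeq table, 1661 directly and 21 by an older name.

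From these counts, guides with at least 30 reads in each plasmid library were kept (15336, of which 14443 to genes and 893 non-targeting). They were scaled with TMM factors from edgeR 4.0.16 in R 4.3.3 and compared as log2 ratios with a pseudocount of 1, which shrinks the changes of guides with few reads. Gene values are medians over guides. The scoring was tested on simulated data. There all guides of a changed gene had the same change, with no non-targeting shift and no slope on G and C. The simulation therefore cannot speak to those features of the real guides. Both plasmid libraries were averaged as separate libraries, since their counts varied beyond sampling noise (chi-square per degree of freedom 2.21). Alternatives covered scaling (including DESeq2 1.42.0 size factors), pseudocount, read minimum, gene score, GC content, plasmid reference and single guides. Overlaps of 8 or more bases between guides of 1 gene were searched on both strands.

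With 1 library per day no test was run. Reads without molecular identifiers are not independent, so intervals cover counting error only. The members and lists were chosen with earlier results of these data known. The named genes are the members, the lowest and highest of each list at day 12, list genes past 2-fold in a comparison, and the 5 nearest to each member; Phf3, Tbl1x, Rbpj, Suz12, Kmt2a and the neighbours in rank were added after their values were seen. Positions in the protein and the shared SPOC stretch, although planned, were not analysed here, and 1 gene of the corepressor list is not reported here.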

Additional observations from a re-analysis of the deposited data

How the results depend on the processing

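Spen and Rbm15 stayed above 0 at day 12 in every alternative run, against the plasmid pool (0.92 to 1.71 and 0.88 to 1.67), against day 8 (0.90 to 1.03 and 0.56 to 0.78) and against day 5 (1.03 to 1.27 and 0.85 to 1.22). Centring on the non-targeting guides moved the median of all genes to -0.57 at day 12 against plasmid. It took Spen to 0.92 and Rbm15 to 0.88 there, both under 2-fold, and turned the small values at day 5 (-0.18 for Spen, -0.27 for Rbm15) and of Rbm15 at day 8 (-0.013). The Spen value of day 12 against day 8 fell under 2-fold with library totals (0.92), centring on non-targeting guides (0.96), a pseudocount of 5 (0.92), no read minimum (0.91), the mean of guides (0.91), summed counts (0.90) and the lowest value with each guide left out in turn (0.90). Rbm15 at day 12 against day 5 fell under it with library totals (0.92), centring on non-targeting guides (0.85) and a pseudocount of 5 (0.99). Averaging overlapping guides per site, chosen after seeing the data, moved Spen at day 8 against plasmid to 0.58.

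Counts of genes past 2-fold either way moved with centring on non-targeting guides to 222, 365 and 458 at days 5, 8 and 12 against plasmid (107, 207 and 285 with TMM factors). With a pseudocount of 5 they moved to 11 for day 8 against day 5 (from 44), 7 for day 12 against day 8 (from 18) and 71 for day 12 against day 5 (from 132). Summed counts gave 26 for day 8 against day 5, and a minimum of 100 plasmid reads gave 37 for day 12 against day 8. With that minimum no Spen guide was left, so it gave no Spen value, and Rbm15 rested on 2 guides. No paired analysis was possible because the time points have 1 library each and share fewer than 2 replicate numbers with the plasmid pool. The causes of these shifts were not tested. Depth limits single guides most: kept Spen and Rbm15 guides had as few as 21 reads at day 5.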

Other observations

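Guides of 1 gene whose targets overlap did not give much closer values than guides elsewhere in the gene. Over the whole library, 3924 kept pairs of guides to the same gene shared 8 or more bases, and their day 12 changes against plasmid differed by a median of 0.69 on the log2 scale. The 51991 pairs with no such overlap differed by a median of 0.74. The Rbm15 pair of guides 3 and 4 differed by 1.80, the Rbm15 pair of guides 2 and 7 by 0.31, and the Spen pairs of guide 5 with guides 9 and 10 by 0.91 and 0.38. Pairs share guides and genes, so these medians are a description with no test.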
